A study of Pan troglodytes with 217 samples.

Results

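Imprinted growth genes were examined in single cells of chimpanzee blastoids, which are blastocyst-like structures made from naive pluripotent stem cells. The panel held 10 symbols, IGF2, PEG3, PEG10, MEST, SNRPN, CDKN1C, PHLDA2, GRB10, NDN and DLK1, taken by gene name and not by a threshold on these values, although earlier results of these data were known when the list was made. Of these, 9 matched 1 of the 33729 gene identifiers of the count table, and NDN had no matching identifier and was not analysed here.

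An imprinted gene is transcribed mainly from the allele of 1 parent, because that allele and its partner received different DNA methylation in the germ line. In mammals, paternally expressed genes such as IGF2, PEG3, PEG10, MEST and DLK1 are broadly known to favour growth of the fetus or the placenta. Maternally expressed genes such as CDKN1C, PHLDA2 and GRB10 are known to restrain it, and loss of several of them enlarges the placenta or the fetus. The counts do not separate the alleles, so every value here is the total expression of a gene, and whether imprinting was kept in these cells was not measured. Naive pluripotent stem cells are known to lose DNA methylation at imprinted regions, so "paternally" and "maternally expressed" name the state of a gene in normal tissues, not one shown for these cells.

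The sequenced cells came from day 4 blastoids of Pan troglodytes and all shared 1 condition. Naive induced pluripotent stem cells had been kept in N2B27 with PD032590, XAV939, Gö6983, human LIF, Activin-A, IL6 and the EZH2 inhibitor EPZ-6438, clustered with PD, A83-01, LPA and Y-27632, moved to the same mixture without PD and then to N2B27 alone. Most of the mural trophectoderm was cut away by hand before dissociation, so the numbers of cells per class follow that dissection. Neither the line nor the blastoid of a cell is given, so the cells form 1 sample without replicates, no test was computed, and a difference between classes describes these cells only.

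Cells with reads on at least 8000 genes were kept and 24 cells with fewer were left out. The kept cells had a median of 3960857 reads and a range of 1679888 to 25630392. Clustering without any of 51 imprinted identifiers gave 4 clusters. The epiblast-like cluster (50 cells) had 10 of 12 epiblast markers at 10 CPM or more (CPM, the reads of a gene scaled to a common total of all reads), and the hypoblast-like cluster (32 cells) had 11 of 12 hypoblast markers at that level. The trophectoderm-like class had 10 of 12 trophectoderm markers and fell into a cluster of 72 cells with low and one of 39 cells with high levels of late trophectoderm genes such as CCR7. Markers of other lineages were present too: 7 of the 12 trophectoderm and 2 of the 12 hypoblast markers reached 10 CPM in the epiblast-like cluster, 6 epiblast and 4 trophectoderm markers in the hypoblast-like cluster, and 2 epiblast markers and 1 hypoblast marker in the trophectoderm-like class. The trophectoderm-like clusters are called CCR7-low and CCR7-high below, and OLR1, RGS13 and EMP2 led the former and CYP19A1, CGA and PTPRE the latter. SPP1, GDF3 and TNFAIP6 led the epiblast-like cluster, and RSPO3, PDGFRA and GATA4 the hypoblast-like cluster. At least 5 markers of each of 2 lineages reached 10 CPM in 14 epiblast-like, 13 hypoblast-like and 10 trophectoderm-like cells. Levels, calls and detection counts were also computed without these cells. The calls of PEG3 and PHLDA2 between hypoblast-like and epiblast-like cells then changed, and values are given where they move a result. Whether these were mixtures of more than 1 cell was not tested. No gene of the panel entered the clustering, so its levels were not used to form the classes.

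Levels are pooled CPM, the reads of a gene divided by all reads over the cells of a class, with exact 95% Poisson intervals. Shares of cells carry exact (Clopper-Pearson) 95% intervals. The Poisson intervals treat reads as independent. Copies of 1 cDNA molecule can be counted more than once, so these intervals can be too narrow even for counting error. They also leave out the spread between cells. The intervals of shares treat cells as independent draws, although the blastoid of each cell is not known. Neither kind covers the spread between blastoids or lines. Levels are compared within a gene and never between genes, since transcript lengths were not used. A gene is called higher or lower between classes at a 2-fold difference of CPM + 1.

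SNRPN and DLK1 were higher in epiblast-like cells than in both other classes, and CDKN1C was higher in trophectoderm-like cells than in both. PEG10 and PEG3 were lower in hypoblast-like than in epiblast-like cells, and PEG10 and PHLDA2 were higher in trophectoderm-like than in hypoblast-like cells. MEST and GRB10 did not reach a 2-fold difference between the 3 classes. MEST and GRB10 had a read in every kept cell, whereas IGF2 had one in 18 cells. Of the 9 genes, 8 of which had a read in at least 20 cells, 5 reached 10 CPM in epiblast-like, 4 in hypoblast-like and 5 in trophectoderm-like cells, against 50.4%, 47.3% and 47.2% of the 15804 genes with a read in at least 20 cells. Within the trophectoderm-like class, 4 did so in CCR7-low and 6 in CCR7-high cells, against 46.5% and 47.2%. At least 50% of the cells had a read of 8, 5 and 5 of the genes, against 72.1%, 66.5% and 66.7% of all genes. For the CCR7-low and CCR7-high clusters this count was 5 and 7, against 65.4% and 69.9%. The median cell had a read of 7 of the genes in the epiblast-like, 5 in the hypoblast-like and 6 in the trophectoderm-like class.

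**Figure D1:**
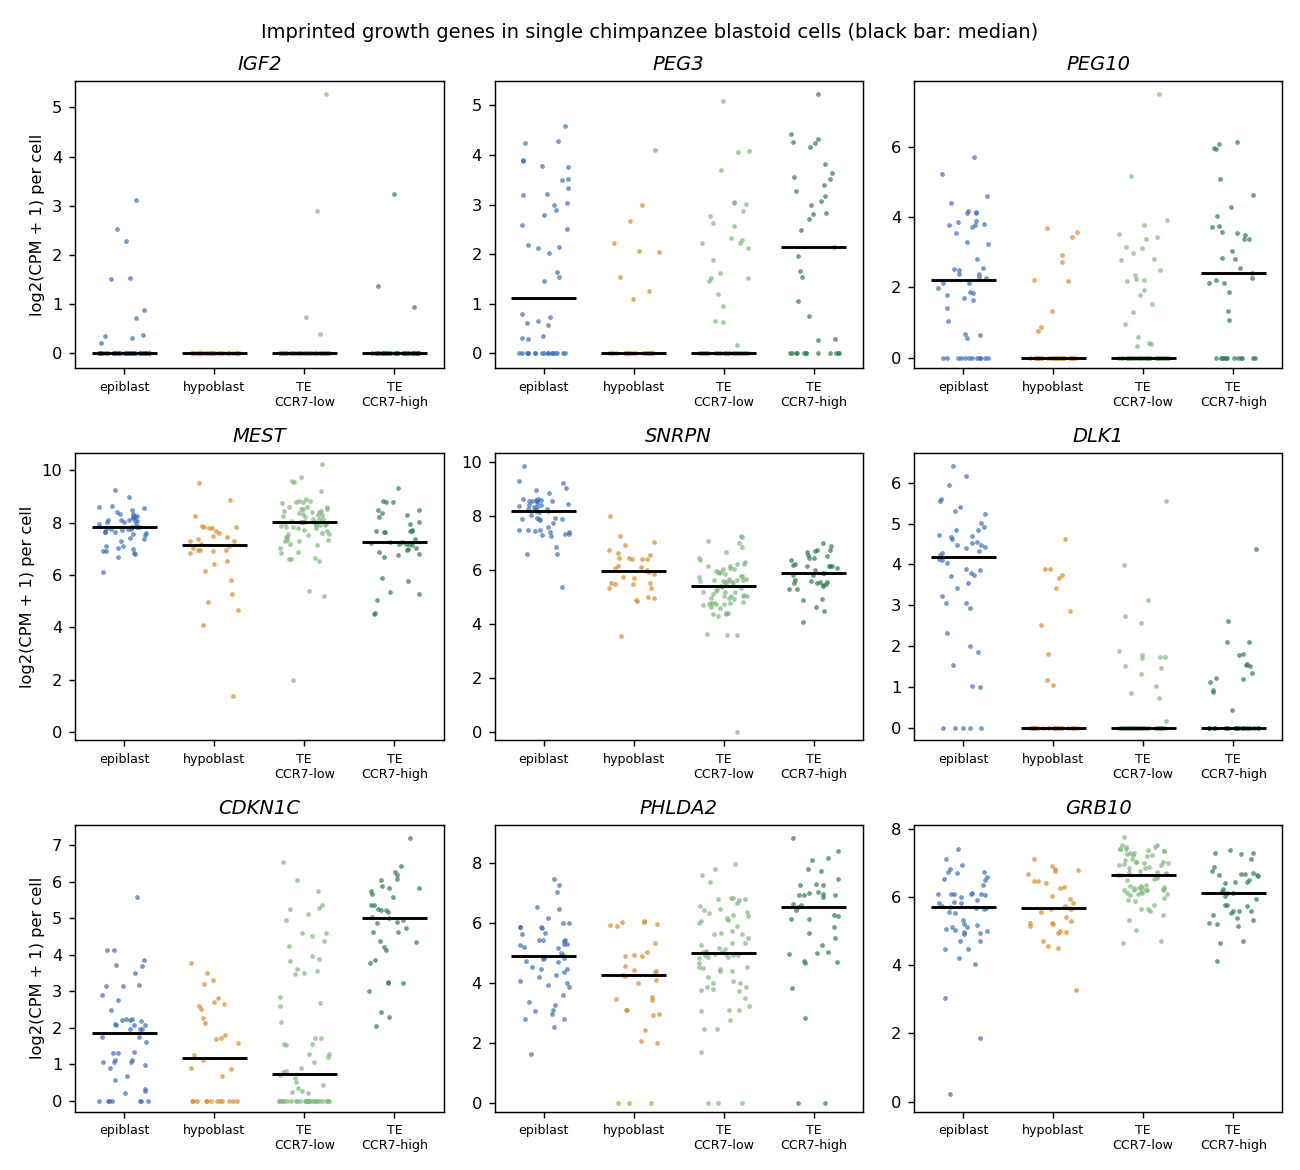
Level of each of the 9 imprinted growth genes per cell, as log2(CPM + 1) on the vertical axis, in the epiblast-like (50 cells), hypoblast-like (32), CCR7-low (72) and CCR7-high (39) trophectoderm-like (TE) clusters. Each point is a cell and each black bar a median, and the vertical scale differs between panels. SNRPN and DLK1 lie highest in epiblast-like cells and CDKN1C in CCR7-high cells, while MEST and GRB10 overlap widely.

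Among the paternally expressed genes, SNRPN (ENSPTRG00000006826) showed the clearest separation. It codes for an Sm-ring protein of the spliceosome and lies in the Prader-Willi region. Single epiblast-like cells ranged from 40.9 to 927.4 CPM with a median of 291.1 CPM. Hypoblast-like cells ranged from 10.7 to 255.3 CPM with a median of 61.7 CPM, and trophectoderm-like cells from 0 to 153.4 CPM with a median of 47.3 CPM. Thus 45 of the 50 epiblast-like cells lay above the highest trophectoderm-like cell, and 28 above the highest hypoblast-like cell. The pooled epiblast-like level was 307.2 CPM (304.8 to 309.5), against 73.2 CPM (71.7 to 74.7) in the hypoblast-like and 54.6 CPM (53.98 to 55.3) in the trophectoderm-like class. The epiblast-like level was 5.62 times the trophectoderm-like and 4.20 times the hypoblast-like level. The hypoblast-like and trophectoderm-like cells differed by 1.34-fold only, and only 1 hypoblast-like cell lay above every trophectoderm-like cell.

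The other genes of the Sm ring did not share this pattern. Its near-identical paralog SNRPB was measured at 127.9, 142.8 and 146.2 CPM in the epiblast-like, hypoblast-like and trophectoderm-like classes. SNRPD1, SNRPD2, SNRPD3, SNRPE, SNRPF and SNRPG, which complete the ring, did not reach a 2-fold difference between any of the classes either. For SNRPD1, summed over 2 identifiers, trophectoderm-like cells held 424.7 CPM and epiblast-like ones 310 CPM. Reads common to SNRPN and SNRPB could have been split between them, which was not tested.

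Other paternally expressed genes of the Prader-Willi region were low. SNURF, which overlaps SNRPN and is made from the same transcript, reached 0.702 CPM among epiblast-like cells and 0.0775 CPM among trophectoderm-like cells. Reads of MAGEL2, a relative of NDN in the same region, were found in 25 epiblast-like and 7 hypoblast-like cells. In the trophectoderm-like class they were found in 13 CCR7-high but only 4 CCR7-low cells. MKRN3 was read in more cells, 36 epiblast-like (72%), 26 hypoblast-like (81.2%) and 93 trophectoderm-like ones (83.8%), and went the other way, with 5.08 CPM in the trophectoderm-like and 3.23 CPM in the epiblast-like class. The paper names the gene counting of STAR but states neither strandedness nor how reads from overlapping genes were assigned. The split between SNRPN and SNURF is therefore uncertain.

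DLK1 (ENSPTRG00000051401), a transmembrane relative of the Notch ligands, was also highest in epiblast-like cells. Of these, 45 had a read (90%, 78.2% to 96.7%), compared with 11 hypoblast-like cells (34.4%, 18.6% to 53.2%) and 33 trophectoderm-like cells (29.7%, 21.4% to 39.1%). Single epiblast-like cells ranged from 0 to 84.3 CPM with a median of 17.2 CPM. The median was 0 in both other classes, whose highest cells reached 23.5 CPM in the hypoblast-like and 45.9 CPM in the trophectoderm-like class. The groups therefore overlapped at the low end, and only 2 trophectoderm-like cells and 1 hypoblast-like cell lay above the epiblast-like median. Pooled levels were 19.4 CPM (18.8 to 20.03), 2.86 CPM (2.58 to 3.17) and 1.34 CPM (1.24 to 1.44) for the epiblast-like, hypoblast-like and trophectoderm-like classes, which are folds of 6.79 and 14.5 for epiblast-like over the other classes. The order was the same at 1 depth: after thinning every cell to 2532312 reads, which left out 20 shallower cells, reads of DLK1 remained in 43 of 48, 10 of 25 and 31 of 100 cells. Without the cells that carried markers of more than 1 lineage, the hypoblast-like level was 1.63 CPM.

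RTL1, a paternally expressed gene derived from a retrotransposon that shares the imprinted domain of DLK1, was read in 32 of the epiblast-like cells, and their pooled level was 2.67 CPM. Only 1 hypoblast-like and 1 trophectoderm-like cell held a read of it. Within the epiblast-like cells the levels of DLK1 and RTL1 were not related (Spearman's rho -0.05, 50 cells). The maternally expressed RNAs of that domain, MEG3, MEG8 and MEG9, had no matching identifier. Of the Notch relatives, DLK2 reached 1.64 CPM in the epiblast-like and 0.418 CPM in the trophectoderm-like class, and NOTCH1, NOTCH2, NOTCH3 and NOTCH4 stayed below 10 CPM in every class.

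IGF2 (ENSPTRG00000047625), a fetal growth factor and the most studied paternally expressed gene, was detected in few cells. Reads were found in 11 epiblast-like cells (22%, 11.5% to 35.96%) and 7 trophectoderm-like cells (6.31%, 2.57% to 12.6%). None of the 32 hypoblast-like cells had one, which allows a share of up to 9.38% and a level of up to 0.0233 CPM. The pooled level was 0.386 CPM (0.307 to 0.478) for the epiblast-like and 0.285 CPM (0.240 to 0.335) for the trophectoderm-like class. A single cell gave 44.6% of the epiblast-like and another 54.4% of the trophectoderm-like reads, and without these cells the levels of IGF2 were 0.219 and 0.130 CPM. A CCR7-low cell at 37.6 CPM was the only one at 10 CPM or more. After thinning, 8 of 48 epiblast-like and 4 of 100 trophectoderm-like cells had a read. IGF2 was read in fewer than 20 cells and was left out of the calls between classes. Its antisense transcript IGF2-AS and INS, its neighbour, had no read. IGF2 overlaps IGF2-AS and an uncharacterized locus in the RefSeq gene order. The paper names the gene counting of STAR but does not state how reads from such overlaps were assigned. Some reads of IGF2 may have been left uncounted, which was not tested.

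PEG10 (ENSPTRG00000023648), a retrotransposon-derived gene needed for the placenta, was low in hypoblast-like cells. It was detected in 38 epiblast-like cells (76%, 61.8% to 86.9%), 10 hypoblast-like cells (31.2%, 16.1% to 50.01%) and 53 trophectoderm-like cells (47.7%, 38.2% to 57.4%). Pooled levels in the same order were 7.17 CPM (6.82 to 7.54), 1.74 CPM (1.52 to 1.99) and 8.35 CPM (8.10 to 8.60), with highest single cells at 51.5, 11.9 and 179.7 CPM. The medians of single cells, 3.60 CPM in epiblast-like cells and 0 in both other classes, had another order, and 28.8% of the trophectoderm-like reads came from 1 cell. By these medians PEG10 was lower in trophectoderm-like than in epiblast-like cells, with a log2 difference of -2.20, so the order of these classes turned with the summary used. In single cells, 14 epiblast-like and 14 trophectoderm-like cells lay above every hypoblast-like cell, but most cells of the 3 classes overlapped. In the CCR7-low cluster 60.1% of the reads came from 1 cell, and the pooled level of 6.51 CPM there stood beside a median of 0. In the CCR7-high cluster 27 of 39 cells had a read, and the pooled level was 11.3 CPM (10.8 to 11.8). The difference between the CCR7-high and CCR7-low clusters was 0.71 on the log2 scale over all cells and 1.58 without the cell with the most PEG10 reads in each cluster.

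SGCE, which codes for a sarcoglycan and sits beside PEG10 under the same imprint, was likewise lowest in the hypoblast-like class, at 7.01 CPM against 42.3 CPM for epiblast-like and 26.7 CPM for trophectoderm-like cells. Across all kept cells rho between PEG10 and SGCE was 0.41, and within clusters it was 0.47 in epiblast-like, -0.15 in hypoblast-like, 0.13 in CCR7-low and 0.55 in CCR7-high cells. The paired values come from the same libraries and share their depth, and PEG10 itself had a rho of 0.42 with the number of genes detected per cell. Over the panel this rho ranged from -0.08 for GRB10 to the value of PEG10, and it was 0.39 for SNRPN and 0.38 for DLK1. Of the other genes of the PEG10 family, RTL8A was the only one at 10 CPM or more, with 72.2, 73.1 and 40.5 CPM in the epiblast-like, hypoblast-like and trophectoderm-like classes.

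PEG3 (ENSPTRG00000023511), a zinc finger gene with roles in growth and maternal behaviour in mice, was sparse in all classes. Its reads were seen in 33 epiblast-like (66%), 9 hypoblast-like (28.1%) and 53 trophectoderm-like cells (47.7%). The pooled level was 4.55 CPM (4.27 to 4.85) among epiblast-like, 1.40 CPM (1.20 to 1.62) among hypoblast-like and 3.40 CPM (3.24 to 3.56) among trophectoderm-like cells. The highest single cells reached 23.1, 16.1 and 36.5 CPM. The classes overlapped at low levels, and 3 epiblast-like and 7 trophectoderm-like cells lay above every hypoblast-like cell. The hypoblast-like level rested on few cells, since 45.6% of its reads came from 1. Its log2 difference of -1.21 from the epiblast-like level fell just short of 2-fold without the cells that carried markers of more than 1 lineage. Within the trophectoderm-like class the CCR7-high level was 6.07 CPM (5.73 to 6.42) and the CCR7-low level 1.72 CPM (1.58 to 1.87), with a read in 27 and 26 cells.

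MEST (ENSPTRG00000019698), which codes for a protein of the alpha/beta hydrolase fold expressed in mesoderm, was lowest in hypoblast-like cells but did not differ 2-fold between classes. Single cells ranged from 67.6 to 612.7 CPM with a median of 226.7 CPM in the epiblast-like class. The ranges were 1.61 to 723.2 CPM with a median of 139.9 CPM in the hypoblast-like and 3.003 to 1196.3 CPM with a median of 230.2 CPM in the trophectoderm-like class. The classes overlapped, but only 5 of the 32 hypoblast-like cells lay above the epiblast-like median and 4 above the trophectoderm-like median. Pooled levels in that order were 239.8 CPM (237.8 to 241.9), 182.1 CPM (179.7 to 184.4) and 235.9 CPM (234.6 to 237.2), and 29.3% of the hypoblast-like reads came from 1 cell. Without the cell with the most MEST reads in each class the levels were 231.9, 138.9 and 233.7 CPM. The CCR7-low cells were 1.44 times as high as the CCR7-high cells, at 267.5 and 185.4 CPM. COPG2, a neighbour that overlaps MEST and is listed here with the maternally expressed genes, lay between 9.12 and 12.1 CPM in the 3 classes. Its level was not related to that of MEST across the kept cells (rho -0.04).

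**Figure D2:**
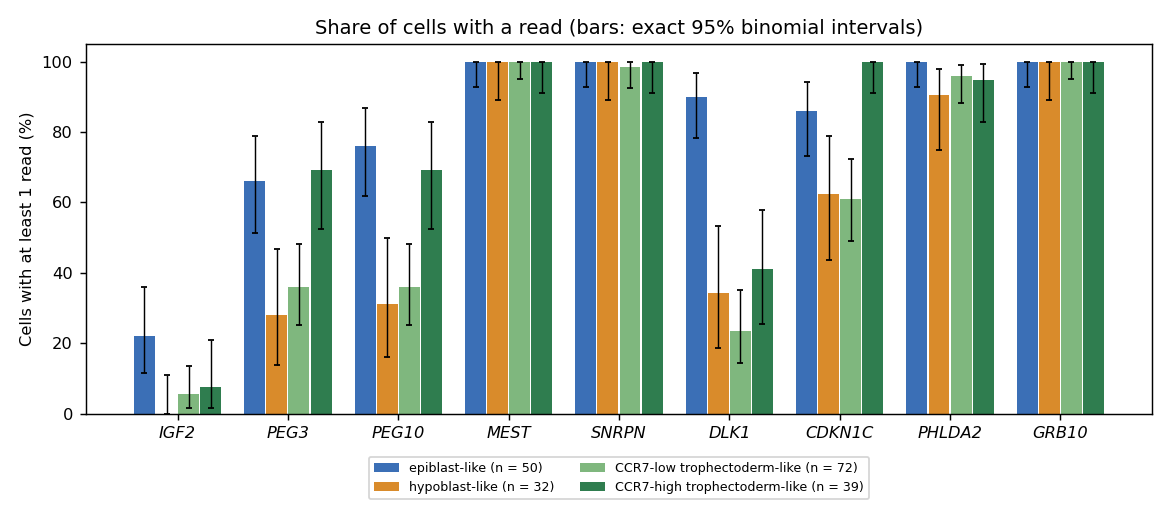
Share of cells with at least 1 read (vertical axis, percent) of each gene in the 4 clusters, with exact 95% binomial intervals as error bars. MEST and GRB10 stand at 100% in every cluster, CDKN1C at 100% in CCR7-high cells, DLK1 at 90% in epiblast-like cells and IGF2 at 22% or less in all clusters.

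Among the maternally expressed genes, CDKN1C (ENSPTRG00000003182), which codes for the cyclin-dependent kinase inhibitor p57, separated the trophectoderm-like clusters. Every CCR7-high cell had a read (39 of 39, 90.97% to 100%), from 3.18 to 146.98 CPM with a median of 31.2 CPM. In the CCR7-low cluster 44 of 72 cells had a read (61.1%, 48.9% to 72.4%), and the cells ranged from 0 to 92.9 CPM with a median of 0.677 CPM. All 39 CCR7-high cells lay above the CCR7-low median and 32 above its upper quartile, although the ranges overlapped. The pooled CCR7-high level was 34.1 CPM (33.3 to 34.97) and the CCR7-low level 8.07 CPM (7.76 to 8.39), a 4.23-fold difference. After thinning, 37 of 37 CCR7-high and 32 of 63 CCR7-low cells had a read.

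Over the whole trophectoderm-like class CDKN1C reached 18.1 CPM (17.8 to 18.5), against 4.12 CPM (3.86 to 4.40) for epiblast-like and 2.47 CPM (2.20 to 2.75) for hypoblast-like cells. These are 4.40-fold and 7.35-fold differences. Detection did not follow the level, since 43 epiblast-like cells (86%) and 83 trophectoderm-like cells (74.8%) had a read. Epiblast-like cells mostly held a low level, with a median of 2.62 CPM and a highest cell at 47 CPM, and hypoblast-like cells reached 12.8 CPM at most. Among trophectoderm-like cells, 15 lay above every epiblast-like and 47 above every hypoblast-like cell. The relatives CDKN1A (p21) and CDKN1B (p27) did not share the order: in epiblast-like, hypoblast-like and trophectoderm-like cells CDKN1A stood at 11.3, 27.1 and 21.6 CPM, and CDKN1B at 14.5, 12.3 and 7.70 CPM.

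H19, a maternally expressed long non-coding RNA on the same chromosome, was also highest in the trophectoderm-like class. Its level there was 229.6 CPM (228.3 to 230.9), compared with 81.9 CPM (80.7 to 83.1) for epiblast-like and 40.3 CPM (39.2 to 41.4) for hypoblast-like cells. CCR7-high cells held 418.02 CPM and CCR7-low cells 111.5 CPM, so both RNAs were higher in the CCR7-high cluster. Of 9537 genes compared, H19 had the highest rho with CDKN1C across the kept cells, at 0.70. Within clusters rho was 0.68 in the 72 CCR7-low and 0.52 in the 32 hypoblast-like cells, but -0.02 in the 50 epiblast-like and -0.18 in the 39 CCR7-high cells. After thinning these values were 0.61, 0.52, 0.02 and -0.10. The boundary between the CCR7-low and CCR7-high clusters moved with the random seed, and rho was not recomputed for the other boundary. The next genes in the order, SLCO4A1 and NET1, both had a rho of 0.64 over all cells, but -0.23 and -0.21 in CCR7-high cells. IGF2, which shares an imprinting control region with H19, did not accompany it, since H19 was read in 95.9% and IGF2 in 9.33% of the kept cells.

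**Figure D3:**
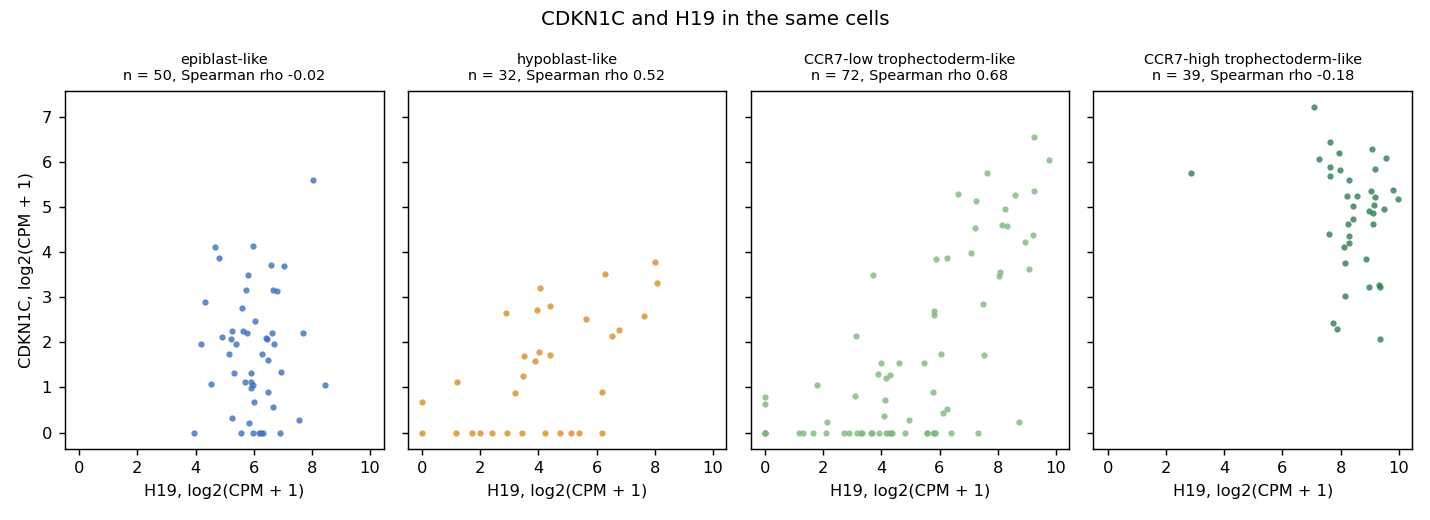
CDKN1C (vertical axis) against H19 (horizontal axis), both as log2(CPM + 1), with 1 point per cell and 1 panel per cluster. Cells with more H19 tend to hold more CDKN1C among CCR7-low trophectoderm-like (rho 0.68) and hypoblast-like cells (0.52), and no such slope is seen in epiblast-like (-0.02) or CCR7-high cells (-0.18). The trophectoderm-like clusters are those of 72 and 39 cells, and rho was not recomputed for another boundary.

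PHLDA2 (ENSPTRG00000003185), a pleckstrin homology domain gene that limits growth of the placenta and lies in the same domain as CDKN1C, was also highest in trophectoderm-like cells. Single cells there ranged from 0 to 457.9 CPM with a median of 39.4 CPM. The range was 2.10 to 176.8 CPM with a median of 28.7 CPM in the epiblast-like and 0 to 66.1 CPM with a median of 18.02 CPM in the hypoblast-like class. The classes overlapped at low levels, and 45 trophectoderm-like but only 6 epiblast-like cells exceeded the highest hypoblast-like cell. Pooled levels were 74.2 CPM (73.4 to 74.9), 37.5 CPM (36.7 to 38.3) and 21.8 CPM (21.01 to 22.6) for the trophectoderm-like, epiblast-like and hypoblast-like classes. The 3.40-fold difference from hypoblast-like cells passed 2-fold, and the 1.98-fold difference from epiblast-like cells lay just below it. Without the cells that carried markers of more than 1 lineage, the hypoblast-like level was 15.6 CPM and lay more than 2-fold below the epiblast-like level of 40.7 CPM.

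Within the trophectoderm-like class the PHLDA2 level was 104.3 CPM (102.9 to 105.8) in the CCR7-high and 55.3 CPM (54.5 to 56.1) in the CCR7-low cluster, which did not pass 2-fold. A single cell gave 24.3% of the CCR7-low reads, and the log2 difference of 0.90 became 1.07 without the cell with the most PHLDA2 reads in each cluster. Across the trophectoderm-like cells rho between CDKN1C and PHLDA2 was 0.50, but it was 0.40 within CCR7-low and 0.24 within CCR7-high cells, 0.10 in epiblast-like and 0.01 in hypoblast-like cells. SLC22A18 and NAP1L4 flank PHLDA2 in the RefSeq gene order and had a rho of -0.04 and -0.02 with it over all cells. For SLC22A18 the value differed between clusters, from -0.46 in hypoblast-like and 0.06 in epiblast-like to 0.10 in CCR7-low and 0.31 in CCR7-high cells, and for NAP1L4 it lay between -0.05 and 0.11. NAP1L4 levels were close to each other, with 272.3, 257.3 and 224.1 CPM for the epiblast-like, hypoblast-like and trophectoderm-like classes. SLC22A18 was lower in trophectoderm-like cells, with 1.44 CPM against 4.78 CPM for the epiblast-like and 6.42 CPM for the hypoblast-like class. The relatives PHLDA1 and PHLDA3 had other orders, and PHLDA1 reached 115.3 CPM in the hypoblast-like but 11.1 CPM in the epiblast-like class.

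GRB10 (ENSPTRG00000019191), an adaptor that dampens insulin and insulin-like growth factor receptor signals, had a read in every cell. Single epiblast-like cells ranged from 0.175 to 171.04 CPM with a median of 51.4 CPM. Hypoblast-like cells ranged from 8.63 to 139.97 CPM with a median of 50.1 CPM, and trophectoderm-like cells from 16.6 to 216.2 CPM with a median of 87.4 CPM. The 3 ranges overlapped, and 90 trophectoderm-like cells lay above the epiblast-like median. Pooled levels in the same order were 58.3 CPM (57.2 to 59.3), 57.3 CPM (55.98 to 58.6) and 92.3 CPM (91.5 to 93.1), so trophectoderm-like cells were 1.58 and 1.61 times as high as the others. Epiblast-like and hypoblast-like cells differed by 1.02-fold. The GRB10 levels of CCR7-low and CCR7-high cells were 100.4 and 79.4 CPM, a 1.26-fold difference that did not pass 2-fold. Its relative GRB7 was, by contrast, lowest in trophectoderm-like cells, with 12.4 CPM against 37.8 CPM in the hypoblast-like and 64.5 CPM in the epiblast-like class.

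**Figure D4:**
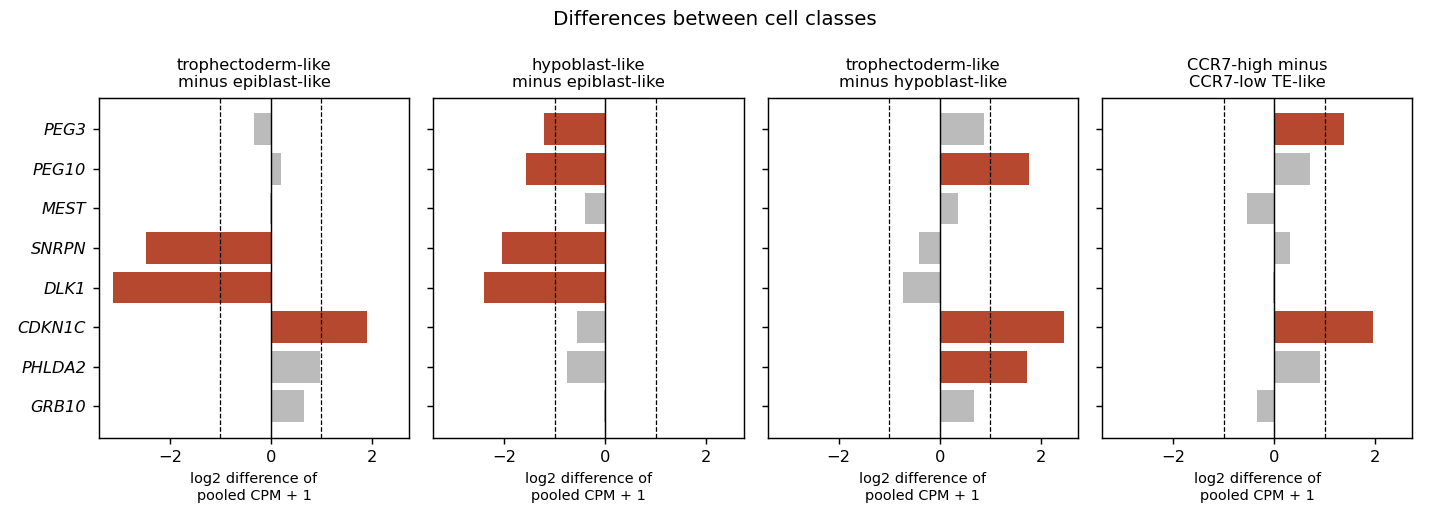
Log2 difference of pooled CPM + 1 (horizontal axes) of the 8 genes with a read in at least 20 cells, for 4 pairs of classes. Dashed lines mark 2-fold, and coloured bars pass it: SNRPN at -2.47, DLK1 at -3.13 and CDKN1C at 1.90 for trophectoderm-like minus epiblast-like cells.

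Counted over the 8 genes with a read in at least 20 cells, CDKN1C was higher in trophectoderm-like than in epiblast-like cells by 1.90 on the log2 scale, where 7.60% of all genes were higher by 2-fold or more. SNRPN and DLK1 were lower, with differences of -2.47 and -3.13, where 15.05% of genes were. Between hypoblast-like and epiblast-like cells 4 genes were lower, DLK1 (-2.40), SNRPN (-2.05), PEG10 (-1.57) and PEG3 (-1.21), against 10.7% of all genes, and 0 were higher, against 3.98%. The median of the panel was -0.98 and that of all genes -0.11. With median-of-ratios scaling the shares of all genes were 8.54% lower and 5.09% higher, the median of all genes moved from -0.11 to -0.01, and the count of 4 lower genes was the same. Between trophectoderm-like and hypoblast-like cells CDKN1C (2.46), PEG10 (1.77) and PHLDA2 (1.72) were higher, against 8.18% of genes, and 0 were lower, against 8.58%. Of these, PEG10 was no longer 2-fold higher by the medians of single cells (both 0) or with a pseudocount of 10 (0.64). Between CCR7-high and CCR7-low cells CDKN1C (1.95) and PEG3 (1.38) were higher, against 5.67% of genes, and 0 were lower, against 4.43%.

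The boundary between the trophectoderm-like clusters was not firm. With another random seed the clusters held 60 and 51 cells in place of 72 and 39, and CDKN1C and PEG3 still differed, by 2.84 and 1.26 on the log2 scale. With 15 neighbours in the clustering the difference of PEG3 was 0.88 and no longer 2-fold, and that between hypoblast-like and epiblast-like cells was -0.81. The assignment to the epiblast-like, hypoblast-like and trophectoderm-like classes was the same for every kept cell under the other seed.

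Beyond the panel, 18 of 26 other paternally expressed genes and 22 of 25 other maternally expressed genes matched an identifier. A level of 10 CPM in at least 1 class or cluster, which 56.2% of all genes with a read in at least 20 cells had, was reached by 7 of the 14 former genes that passed this filter, SGCE, PLAGL1, ZDBF2, NNAT, BLCAP, ZNF331 and ERLIN2, and 9 of the 18 latter ones, H19, NAP1L4, UBE3A, GNAS, COPG2, NLRP2, IGF2R, PHACTR2 and RB1. Between trophectoderm-like and epiblast-like cells 0 paternally expressed genes were higher and 2 lower of the 14 with a read in at least 20 cells, and of 18 maternally expressed genes 2 were higher and 3 lower, against 7.60% higher and 15.05% lower among all genes. The lower paternally expressed genes were RTL1 and NNAT, the gene of neuronatin, which had 27.3 CPM in the epiblast-like and 3.68 CPM in the trophectoderm-like class. The higher genes of the maternally expressed list were H19 and IGF2R, and the lower ones were ATP10A (-2.08 on the log2 scale), SLC22A18 (-1.24) and PPP1R9A (-1.06). PLAGL1, a zinc finger gene of the transient neonatal diabetes region, stood apart in the hypoblast-like class. Its level there was 12.3 CPM (11.7 to 12.9), with a read in 16 of 32 cells, compared with 1.88 CPM for epiblast-like and 1.19 CPM for trophectoderm-like cells. ERLIN2, ZNF331 and BLCAP were highest in trophectoderm-like cells, at 32.8, 14.6 and 11.6 CPM, and ZDBF2 was highest in epiblast-like cells, at 45.3 CPM. UBE3A, GNAS, NLRP2, PHACTR2 and RB1 did not reach a 2-fold difference between the 3 classes. Between hypoblast-like and epiblast-like cells 1 of the 14 paternally expressed genes was higher and 4 were lower. Of the 18 maternally expressed genes 1 was higher and 2 were lower. Among all genes 3.98% were higher and 10.7% lower.

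The partners of IGF2 differed in level. IGF1R, the receptor through which IGF2 signals, stayed between 0.794 and 1.09 CPM in the 3 classes, and INSR, the insulin receptor, between 1.55 and 5.20 CPM. IGF2R, the receptor that clears IGF2 and a maternally expressed gene in mice, was lowest in the epiblast-like class, with 7.94 CPM (7.57 to 8.32) against 26.99 CPM (26.1 to 27.9) for hypoblast-like and 29.8 CPM (29.4 to 30.3) for trophectoderm-like cells. In single cells 29 of 32 hypoblast-like cells lay above the epiblast-like median, and 9 trophectoderm-like cells lay above every epiblast-like cell. Of the 16 genes of the insulin-like growth factor axis, 13 had a read in at least 20 cells, and of these 5 reached 10 CPM in a class or cluster, against the 56.2% of all genes. Among the 5 are the genes of 3 RNA-binding proteins that bind IGF2 mRNA. IGF2BP1 was lowest in epiblast-like cells, with 19.5 CPM against 97.2 CPM for hypoblast-like and 131.7 CPM for trophectoderm-like cells. IGF2BP2 was highest there, at 120.6 CPM against 34.5 and 23.6 CPM. IGF2BP3 was measured at 96.3, 55.2 and 86.4 CPM in the 3 classes and differed within the trophectoderm-like class, with 170.3 CPM for CCR7-high and 33.8 CPM for CCR7-low cells. IGFBP2, a secreted binding protein, was measured at 13.02, 7.26 and 7.98 CPM. Between trophectoderm-like and epiblast-like cells 2 of 13 genes of the axis were higher and 5 lower, against 7.60% and 15.05% of all genes. Between hypoblast-like and epiblast-like cells 3 were higher and 4 lower, against 3.98% and 10.7%. IGF1 had 4.99 CPM in the hypoblast-like, 0.576 CPM in the epiblast-like and 0.482 CPM in the trophectoderm-like class.

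Of 15 genes that establish or protect imprints, 12 had a read in at least 20 cells, and of these 9 reached 10 CPM in a class or cluster, against 56.2% of all genes. ZFP57, the zinc finger protein that guards methylated imprinting control regions, was highest in the epiblast-like class, at 87.7 CPM against 36.8 CPM for hypoblast-like and 28.1 CPM for trophectoderm-like cells. Its corepressor TRIM28 was measured at 558.6, 438.2 and 332.6 CPM in the same order. DPPA3, which limits maintenance methylation through UHRF1, stood at 1353.2 and 1284.6 CPM in the epiblast-like and hypoblast-like classes but 219.1 CPM in the trophectoderm-like class. UHRF1 was measured at 57.9, 22.8 and 23.3 CPM, and NLRP7, a maternal-effect gene of imprinting, at 61.4, 28.2 and 22.7 CPM. ARID4A, ARID4B, SETDB1 and CTCF did not reach a 2-fold difference between the 3 classes. DNMT1 was low throughout, at 0.423 CPM in the epiblast-like, 0.319 CPM in the hypoblast-like and 0.833 CPM in the trophectoderm-like class. The reason for its low level was not tested. In all, 4 of 12 genes of this list with a read in at least 20 cells were lower in trophectoderm-like than in epiblast-like cells and 0 were higher, against the 15.05% and 7.60% given above. Between hypoblast-like and epiblast-like cells 3 were lower and 0 higher, against 10.7% and 3.98%.

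For each gene of the panel with a read in at least 50% of all cells, the 3 genes with the highest rho across the kept cells were listed. The values describe cells of 1 sample that share libraries and depth. The partners of SNRPN were CARHSP1 (0.72), HSPB1 (0.71) and ATP5IF1 (0.69), and within epiblast-like cells these values were 0.64, 0.44 and 0.46. They were 0.46, 0.24 and 0.72 in hypoblast-like, 0.28, 0.50 and 0.39 in CCR7-low and 0.05, -0.08 and -0.17 in CCR7-high cells. MEST was nearest to CNIH1 (0.59), GPX8 (0.55) and ELOVL5 (0.52), and for CNIH1 the value was 0.38, 0.45, 0.65 and 0.62 in epiblast-like, hypoblast-like, CCR7-low and CCR7-high cells, while for ELOVL5 it was 0.45, 0.21, 0.60 and 0.25. PHLDA2 was nearest to TOMM5 (0.47), IMPDH2 and PAICS (both 0.45), with values of 0.19 to 0.51 in epiblast-like, 0.20 to 0.40 in hypoblast-like, 0.25 to 0.50 in CCR7-low and 0.40 to 0.52 in CCR7-high cells. GRB10 was nearest to LRRFIP1 (0.54), PRSS8 and SH3GL3 (both 0.52), with 0.21 to 0.39, 0.08 to 0.31, 0.16 to 0.42 and 0.21 to 0.48 in the same clusters. PEG10 was nearest to ABLIM1 (0.44), SGCE (0.41) and LRRC8B (0.40), with 0.28 to 0.47, -0.15 to 0.36, 0.11 to 0.20 and 0.32 to 0.55 in these clusters. Among the panel itself the highest value was that of SNRPN and DLK1 (0.50) over all cells, which was 0.32 in epiblast-like, -0.11 in hypoblast-like, 0.17 in CCR7-low and -0.25 in CCR7-high cells.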

How the data were processed

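Libraries of single blastoid cells had been made by SMART-seq2, which copies whole transcripts and carries no molecular identifiers. The authors deposited raw read counts per Ensembl gene, not normalized. The paper's methods name FastP for trimming and STAR for alignment to the chimpanzee genome and counting, whereas the submitters' processing notes name Trim Galore 0.6.6, STAR 2.7.7a and the build GRCh38. The identifiers of the table are those of the chimpanzee annotation (ENSPTRG). Which tool versions made it was not settled, and no coordinates were used.

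Symbols were attached from a table pairing 18783 of 33729 identifiers with symbols. Gene order came from RefSeq (NHGRI_mPanTro3-v2.0_pri). No sequences or transcript lengths were used. Cells with fewer than 4000 reads or 8000 detected genes (24 of 217) were left out. The paper gives the same thresholds but reports fewer kept cells, so the sets of cells differ. Genes with a read in at least 20 of 193 cells, minus 51 imprinted identifiers, were clustered with Scanpy 1.11.5 (50 components, 30 neighbours, Leiden resolution 1, seed 0, leidenalg 0.10.2). A cluster took the class of its highest mean standardized marker list. Doublets were not called. Cells with at least 5 markers of each of 2 lineages at 10 CPM were counted instead. No pair of cells had identical counts.

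Pooled CPM, differences of log2(CPM + 1) and Spearman's rho were computed with Python 3.11.15, numpy 2.4.6, pandas 2.3.3 and scipy 1.17.1, and figures with matplotlib 3.10.9. Limits for a count of 0 are 3 counts. Differences and clustering were also run on simulated cells, split evenly, in which only genes with a mean of at least 10 CPM were changed. These runs do not cover genes with a lower mean, such as IGF2, PEG3, PEG10 and DLK1, or the boundary between the trophectoderm-like clusters. The members of the panel, the gene lists and the marker lists were chosen with earlier results of these data known. Named were the panel, genes of the other lists at 10 CPM or more in some class or cluster, relatives, the 3 genes per panel gene with the highest rho, and the 3 leading genes per cluster. Genes below 10 CPM named beside a panel gene or within a list (SNURF, MAGEL2, MKRN3, RTL1, SLC22A18, DLK2, ATP10A, PPP1R9A, IGF1R, INSR, IGF1, DNMT1) were added after their values were seen.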

Additional observations from a re-analysis of the deposited data

Results flagged for a closer look

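The 24 cells left out for too few detected genes were in no comparison, and 8 of the panel's genes had reads in them above the limit that a count of 0 allows. Pooled levels in these cells were 212.2 CPM for MEST, 54.5 CPM for SNRPN, 50.6 CPM for GRB10, 35.7 CPM for PHLDA2, 12.9 CPM for CDKN1C, 7.15 CPM for PEG3, 4.31 CPM for DLK1 and 2.31 CPM for PEG10. For PEG3, 91.4% of the reads came from 1 cell at 301.4 CPM, above the highest passing cell at 36.5 CPM. IGF2 had no read in these cells, which allows up to 0.0685 CPM.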

How the results depend on the processing

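Of the recomputed counts and medians, all but 17 stayed within 1.5 times the reported value. None of the 12 differences past 2-fold changed sign under the alternatives, and 10 of their recomputed values fell below 2-fold. The differences of SNRPN stayed past 2-fold throughout. At 1 CPM, 8 genes of the panel passed in each class, as did 73.3% to 77.8% of all genes, and at 50 CPM 3 did in epiblast-like cells, against 24.3%. With at least 10 CPM in place of a read, 5 genes passed in at least 50% of epiblast-like cells, against 46.6%. The number of genes higher in CCR7-high than in CCR7-low cells was 1 at resolution 1.5, with 15 neighbours (5.61% of all genes under both) or with a pseudocount of 10 (2.04%). It was 4 after thinning, with the mean or the median of single cells, and without the cell with the most reads of each gene, where PEG10 and PHLDA2 joined and 4.63% to 7.79% of all genes were higher. Between trophectoderm-like and epiblast-like cells, 4 genes were lower by the median of single cells, with PEG10 (-2.20) and PEG3 (-1.16) beside SNRPN and DLK1, against 14.8% of all genes. With median-of-ratios scaling 2 were higher, where PHLDA2 reached 1.10, against 8.68%. With a pseudocount of 10, 0 were higher, since CDKN1C stood at 0.99, against 3.48%, and 2 were lower in hypoblast-like than in epiblast-like cells, against 2.64%. With a pseudocount of 0.1, 1 gene, DLK1, was lower in trophectoderm-like than in hypoblast-like cells (-1.04), against 13.2%, and PEG3 (1.22) joined the 3 higher ones, against 14.003%. PEG3 also joined them without the cell with the most reads of each gene (1.16), against 9.03%. Without the cell with the most reads in all, an alternative chosen after seeing the data, PHLDA2 differed by 1.18 between the CCR7-high and CCR7-low clusters. The order of the cells, also added later, gave clusters of 60 and 51 cells. Thinning lowered the share of CCR7-low cells with a read of CDKN1C from 61.1% to 50.8%. A zero in a single cell cannot be read as absence. No paired analysis was possible because all cells belong to 1 group.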
